A study of Mus musculus with 7 samples.

Results

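The SOCS family is a set of 8 genes, Cish and Socs1 to Socs7, whose proteins restrain cytokine signalling. They were chosen by name as the rows of the deposited gene tables that carry these symbols, and all 8 were found among 24062 genes. All 8 were also among the 15188 genes that passed the filter on low counts. RNA was sequenced from 7 whole mouse spleens aged 2 to 3 months. The 3 mutant spleens were enlarged and carried the genotype Vav1-iCre;Brca1F22-24/F22-24, in which Cre recombinase is driven by regulatory sequence of the blood cell gene Vav1 and the Brca1 allele is named for exons 22 to 24. The 4 wild-type spleens were labelled C57BL6 and Brca1+/+. Recombinase, altered allele, spleen enlargement and any difference in strain go together in the mutant group and cannot be told apart. Vav1 drivers are known mainly for activity in blood cells, and recombination of the allele by cell type was not measured here.

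Cytokine receptors without a kinase of their own signal through JAK kinases, which phosphorylate STAT transcription factors. STATs then switch on some of the SOCS genes, whose proteins feed back on the receptor and the kinase. Each SOCS protein has an SH2 domain that docks on phosphotyrosine and a SOCS box that recruits elongins B and C, a cullin and a RING protein into a ubiquitin ligase. Levels are given as CPM, a gene's counts relative to its library's total, scaled by TMM factors. Fold changes are log2, mutant minus wild type, from edgeR's quasi-likelihood test with Benjamini-Hochberg adjustment over all tested genes, and a gene was called at an adjusted p under 0.05.

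Socs1 and Socs7 rose modestly in the mutant spleens, and the other 6 members were not called. Mutant 1 differed from the other 2 mutants, with the highest level of 5 of the 8 members over all 7 libraries. It was highest for 13.2% of all tested genes. For Socs4 its lead was slight (31.0 against 30.5 CPM in wild-type 4), and Cish and Socs2 stood furthest from the rest in mutant 1. Of the 8 members 2 were higher and 0 were lower in edgeR, where 28.5% of all tested genes were higher and 28.9% were lower (57.4% in either direction), so the number of members that rose is near that of genes at large. At an unadjusted p under 0.05, 4 members were higher and 0 lower in edgeR, a threshold at which genes at large were not counted. DESeq2 called 4 members higher and 0 lower, where 4685 of 15021 tested genes were higher and 4602 lower. In limma-voom the members numbered 2 and 0, where 4209 of 15188 tested genes were higher and 4697 lower. The median log2 fold change of the 8 members was 0.41, and that of all tested genes was -0.02.

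The libraries held 26889712 to 63612532 counts, and the members had between 118 and 4352 counts in any library. Cell type markers are given beside all tested genes, of which 28.5% rose and 28.9% fell. Of 8 B cell markers 8 fell, with a summed level of 3454 to 4736 CPM in wild type and 29.0 to 182 CPM in the mutants. Of 8 T cell markers 7 rose (650.0 to 898 against 1465 to 2960 CPM). The eighth, Cd4, was not called but lay lower in each mutant (128 to 185 CPM in wild type against 59.2 to 123 CPM). Of 8 immature T cell markers 7 rose (145 to 167 against 1301 to 3238 CPM, with the eighth lower). Of 8 monocyte and macrophage markers 7 fell (1905 to 2448 against 145 to 626 CPM), as did 6 of 7 dendritic cell markers (241 to 352 against 4.59 to 43.6 CPM). Among 8 stromal and endothelial markers 4 fell (557 to 893 against 356 to 591 CPM) and Pdgfrb rose. Only 2 of 8 neutrophil markers fell, near the share of all tested genes. Their sum was 603 to 1506 CPM in wild type and 454, 599.7 and 19.4 CPM in mutants 1 to 3. Of 7 NK markers 5 fell and Gzma rose, with sums of 143 to 193 CPM in wild type and 264 to 528 CPM in the mutants. The mutant sums were mostly Gzma, at 249 to 526 CPM. The 7 measured erythroid markers were all uncalled (2264 to 29476 against 3181 to 15089 CPM). No marker of these lists had 0 counts in all 3 mutants, although Ncr1 and Klra8 had 0 in at least 1. In whole tissue, fewer cells of a type and less RNA per cell cannot be told apart, and the part of these cell types in the members' levels was not tested.

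**Figure D1:**
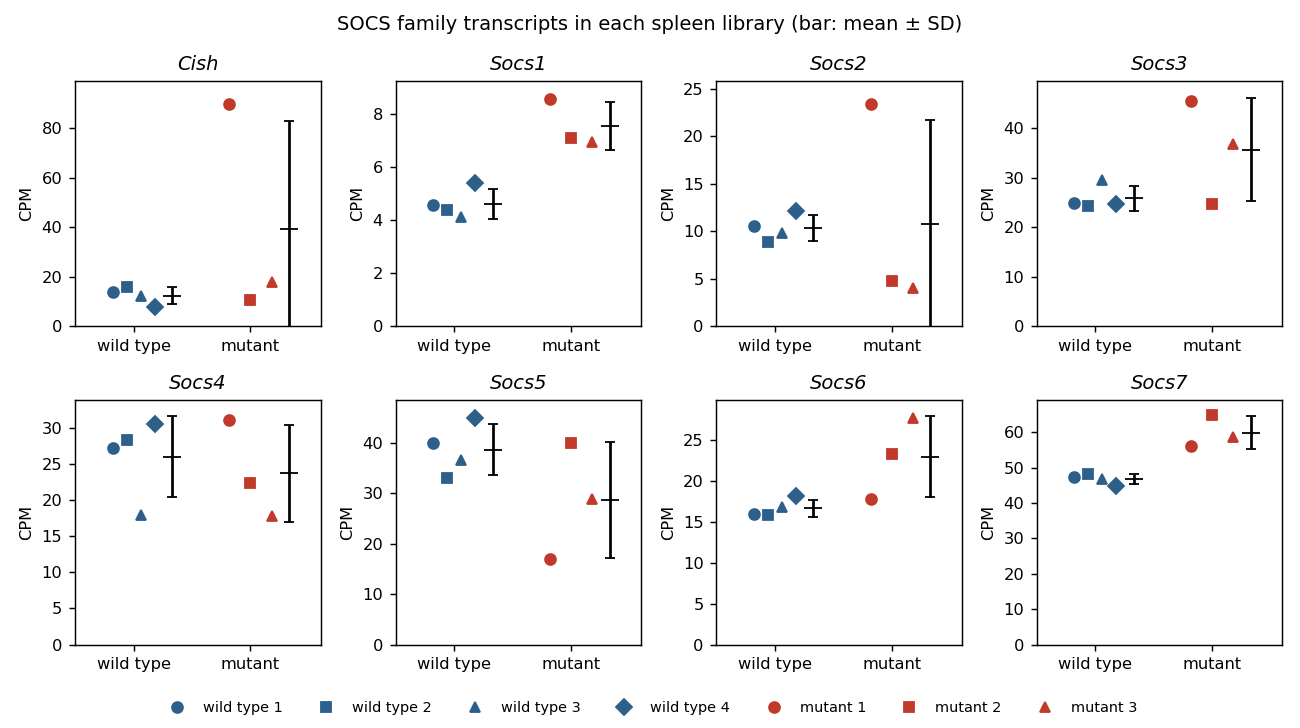
Each panel shows 1 SOCS gene in CPM on a linear axis from 0, with 1 symbol per library (blue, 4 wild-type spleens, and red, 3 mutant spleens) and the mean ± SD in black, cut off at 0 where the SD exceeds the mean. The groups do not overlap for Socs1 and Socs7, and mutant 1 stands alone for Cish at 89.7 CPM.

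Promoter sequence from RefSeq (GRCm38.p6, the build of the files) was found for 4 members, Cish, Socs1, Socs3 and Socs4, in windows of 300 bases that start 250 bases before the annotated start. Stretches of 30 bases are shown for the 3 of these members with a match to a STAT or an interferon response motif. Known functional sites were not looked up. The STAT motif TTCNNNGAA reads the same on both strands and the interferon response motif, 2 copies of GAAA that are 2 bases apart, was searched on both, with overlapping matches allowed. Capitals mark the matches, and each line runs 5′ to 3′ on the gene's strand.
Cish, chr9:107296654-107296683, plus strand: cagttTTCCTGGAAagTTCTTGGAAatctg
Socs3, chr11:117969501-117969530, minus strand: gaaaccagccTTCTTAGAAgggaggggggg
Socs1, chr16:10785597-10785626, minus strand: cttgccgGAAAGAGAAACCGAAAgcggggg

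The Cish stretch holds 2 STAT motifs, which begin at the RefSeq start and 11 bases after it. The gene start in the deposited table lies further along, so the same motifs begin 30 and 19 bases before that start. Of 32851 promoter windows 8.30% held this motif at least once and 0.457% held it 2 or more times. The Socs3 window holds 1, at 154 bases before the start. The Socs1 window holds no STAT motif but 2 overlapping interferon response motifs, GAAAGAGAAA and GAAACCGAAA, found at least once in 3.44% of windows and 2 or more times in 0.225%. The Socs4 window holds neither. A match describes these letters only, and no binding was measured here.

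Socs1 blocks JAK catalytic activity directly through a kinase inhibitory region and is the main brake on interferon gamma signalling in lymphocytes. Socs1 (chromosome 16, 10783809 to 10785536, minus strand, mm10) measured 8.58, 7.09 and 6.94 CPM in mutants 1 to 3, against 4.56, 4.37, 4.12 and 5.40 CPM in wild-type 1 to 4. Each mutant lay above each wild-type spleen, with means of 7.53 ± 0.908 and 4.61 ± 0.557 CPM (SD, n = 3 and 4). The log2 fold change was 0.71 (SE 0.21, 95% interval 0.21 to 1.21, adjusted p = 0.0236, edgeR), a 1.63-fold increase. Groups that did not overlap, with the mutant higher, were found for 29.2% of all tested genes (32.6% with the mutant lower, 61.7% in all). In edgeR the call was lost with library size alone as the scaling (0.46, adjusted p = 0.174) and with a block for replicate number (0.78, adjusted p = 0.0940). It was also lost in edgeR without wild-type 1, 2 or 3 in turn (0.65 to 0.70, adjusted p = 0.0702 to 0.0750), and without wild-type 1 and 2 together (0.66, adjusted p = 0.194). Over its alternatives the adjusted p ran from 6.56e-04 in DESeq2 to 0.194 in edgeR.

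Socs7 is the largest member in transcript length here and has been linked to insulin signalling and to the cytoskeletal adaptor Nck. Socs7 (chromosome 11, 97362551 to 97398542, plus strand) measured 56.0, 64.9 and 58.7 CPM in mutants 1 to 3, against 47.4, 48.2, 46.8 and 44.8 CPM in wild type. It was the steadiest member, with an SD of 3.11% of the mean in wild type and 7.66% in the mutants. The change was small but larger than the spread between spleens, at 59.9 ± 4.58 against 46.8 ± 1.45 CPM and a log2 fold change of 0.36 (SE 0.11, 95% interval 0.09 to 0.62, adjusted p = 0.0300, edgeR). In edgeR the Socs7 call was lost with library size alone (0.11, adjusted p = 0.499) and with a block for replicate number (0.32, adjusted p = 0.168). It was also lost in edgeR without wild-type 1 and 2 (0.38, adjusted p = 0.163) and without any 1 library other than mutant 1 (0.27 without mutant 2 to 0.38 without mutant 3, adjusted p = 0.0511 to 0.118). Scaling by library size alone moved the median of all genes to -0.26. Relative to the median gene, Socs1 stood at 0.72 and Socs7 at 0.37 under that scaling, against 0.73 and 0.37 with TMM. A change of scaling shifts all genes by nearly the same amount, so this agreement was fixed beforehand and adds no support to either call.

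Socs6, the relative of Socs7 that binds the receptor kinase Kit and the T cell kinase Lck, was higher in mutants 2 and 3 but not clearly in mutant 1. Socs6 (chromosome 18, 88867880 to 88894207, minus strand) measured 17.8, 23.3 and 27.7 CPM in mutants 1 to 3, against 15.9, 15.8, 16.8 and 18.1 CPM in wild type. Mutant 1 lay within the wild-type range. The log2 fold change of 0.46 (SE 0.19, 95% interval 0.03 to 0.89, adjusted p = 0.0644, edgeR) did not pass, while DESeq2 called it (0.50, adjusted p = 0.0409). Without mutant 1 it was 0.70 (adjusted p = 0.00499, edgeR, against 0.00499 to 0.434 over its alternatives).

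Cish and Socs2 are classical STAT5 targets. Cish docks on receptors such as the IL-2 receptor beta chain and also restrains T cell receptor signalling, and Socs2 is best known as the brake on growth hormone signalling. Cish (chromosome 9, 107296689 to 107301961, plus strand) measured 89.7, 10.5 and 17.6 CPM in mutants 1 to 3, against 13.7, 15.7, 12.3 and 7.59 CPM in wild type. Mutant 1 was 5.09 times the next highest library, a gap reached by 0.388% of tested genes, whereas mutant 2 lay inside the wild-type range and mutant 3 just above it. The group means, 39.3 ± 43.8 and 12.3 ± 3.44 CPM, give a log2 fold change of 1.68 (SE 0.68, 95% interval 0.09 to 3.27, adjusted p = 0.0672, edgeR) that did not pass. It passed in DESeq2 (1.68, adjusted p = 0.0182) and in edgeR without mutant 2 (2.11, adjusted p = 0.0272) or mutant 3 (2.01, adjusted p = 0.0464), and fell to 0.27 without mutant 1 (adjusted p = 0.502). In GENCODE M21, annotated on the same build, 2 genes on the opposite strand, Gm17040 and Gm17041, overlap Cish. Whether counting used strand is not given in the sources used here, so reads of these genes and of Cish cannot be told apart.

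Socs2 (chromosome 10, 95411490 to 95416857, minus strand) split the mutants further. It stood at 23.4 CPM in mutant 1, at 4.79 and 4.04 CPM in mutants 2 and 3, and at 10.5, 8.81, 9.80 and 12.1 CPM in wild type. Mutant 1 lay above and the other 2 mutants below each wild-type spleen. The ratio of mutant 1 to the next highest library was 1.93, which 2.09% of tested genes reached. Averaged over all 3 mutants the log2 fold change was 0.06 (SE 0.59, 95% interval -1.31 to 1.43, adjusted p = 0.937, edgeR), a value that turned negative under other settings. Without mutant 1 it was -1.14 (adjusted p = 0.00440, against 0.00440 to 0.995 over its alternatives), the lowest adjusted p of any setting tried for this gene.

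Both genes stood higher in mutant 1 than in the other mutants, whereas the ratio of Cish to Socs2 within a library was alike in mutants 1 and 3. The log2 ratio of their CPM came to 1.94, 1.12 and 2.11 in mutants 1 to 3, against 0.38, 0.83, 0.32 and -0.67 in the wild-type spleens. All 3 mutants lay above all 4 wild-type spleens. The mean difference was 1.51 (1.40 without mutant 1), with an exact two-sided permutation p of 0.0286, the smallest that 3 spleens against 4 can give. After adjustment over the 4 pairs compared it was 0.114, which does not pass. With 1 pair alone at the smallest p, no adjusted value under 0.05 could be reached, so this outcome decides nothing. The other pairs were those of the members usually grouped by sequence. The mutant minus wild-type difference of the log2 ratio was 0.28 for Socs1 to Socs3 (exact permutation p = 0.314, adjusted 0.629), 0.37 for Socs4 to Socs5 (exact permutation p = 0.629, adjusted 0.657) and 0.09 for Socs6 to Socs7 (exact permutation p = 0.657, adjusted 0.657), with overlapping groups in each. For Socs6 to Socs7 the log2 ratio ran from -1.65 to -1.08 in the mutants, around the wild-type values of -1.60 to -1.31.

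**Figure D2:**
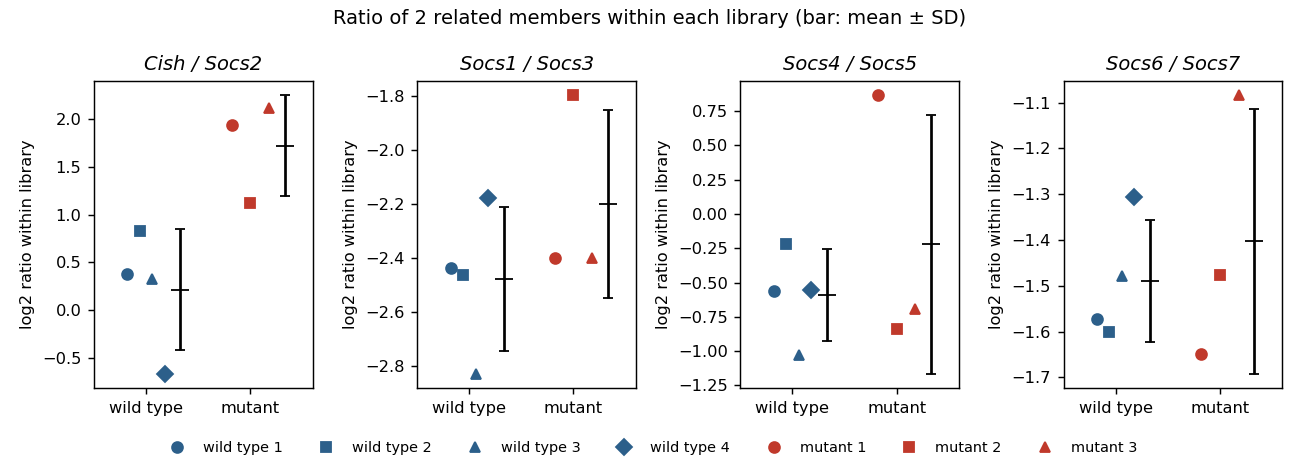
Each panel shows the log2 ratio of CPM of 2 related SOCS genes within each library (1 symbol per library, mean ± SD in black, axes not starting at 0). All mutants lie above all wild-type spleens for Cish to Socs2 (1.12 to 2.11 against -0.67 to 0.83), and the groups overlap in the other 3 panels.

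Socs3 is the brake on receptors that use gp130, such as that for IL-6, and on the G-CSF receptor. Socs3 (chromosome 11, 117966087 to 117969366, minus strand) measured 45.4, 24.7 and 36.8 CPM in mutants 1 to 3, against 24.9, 24.3, 29.6 and 24.6 CPM in wild type. Mutants 1 and 3 lay above all wild-type spleens and mutant 2 lay among them. The log2 fold change was 0.46 (SE 0.22, 95% interval -0.04 to 0.97, adjusted p = 0.0993, edgeR), and it passed without mutant 2 (0.65, adjusted p = 0.0183, against 0.0183 to 0.456 over its alternatives).

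Socs4 and Socs5, which share long N-terminal regions and have been linked to the EGF receptor, were not called. Socs4 (chromosome 14, 47277143 to 47291591, plus strand) measured 31.0, 22.3 and 17.8 CPM in mutants 1 to 3, against 27.1, 28.3, 17.9 and 30.5 CPM in wild type, with wild-type 3 near the lowest mutant. Its log2 fold change was -0.13 (SE 0.26, 95% interval -0.73 to 0.46, adjusted p = 0.687, edgeR). Socs5 (chromosome 17, 87107679 to 87137588, plus strand) measured 17.0, 39.9 and 28.9 CPM in mutants 1 to 3, against 40.0, 33.0, 36.5 and 44.9 CPM in wild type. Mutant 1, which held the highest Cish and Socs2, held the lowest Socs5, and 1.21% of tested genes were as far below their next lowest library in mutant 1. The log2 fold change of Socs5 was -0.43 (SE 0.28, 95% interval -1.08 to 0.22, adjusted p = 0.218, edgeR), and it passed without mutant 2 (-0.77, adjusted p = 0.0413, against 0.0413 to 0.745 over its alternatives).

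**Figure D3:**
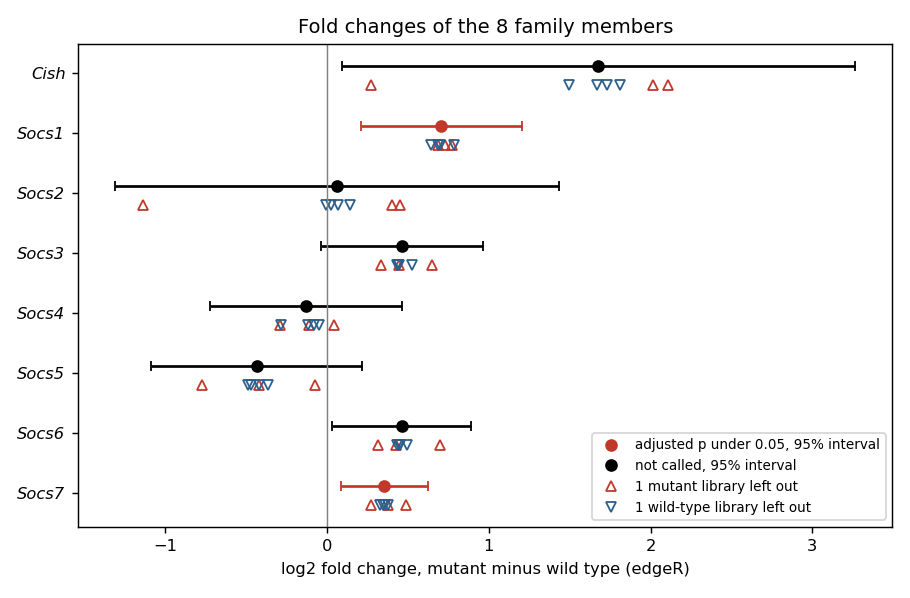
The horizontal axis is the log2 fold change of each SOCS gene, mutant minus wild type, from edgeR, with its 95% interval (red, called, and black, not called). Open triangles show the fold change with 1 library left out. The Socs1 triangles stay between 0.65 and 0.78, while those of Socs2 run from -1.14 to 0.45 and those of Cish from 0.27 to 2.11.

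To compare members with each other, CPM was divided by exon length in kilobases (GENCODE M21 basic exons within the deposited gene span). In wild type the order of the level per kilobase was Socs4 (12.1 ± 2.59), Socs3 (10.2 ± 0.979), Socs5 (8.78 ± 1.15), Socs7 (6.67 ± 0.207), Cish (5.70 ± 1.59), Socs6 (5.07 ± 0.317), Socs2 (3.83 ± 0.521) and Socs1 (3.44 ± 0.416), as mean CPM per kilobase ± SD with n = 4. Among neighbours in that order the libraries were separated only between Socs5 and Socs7 and between Socs6 and Socs2, and the other neighbours overlapped. The means of all 8 lay within 3.44 to 12.1 CPM per kilobase. In the mutants the mean per kilobase was highest for Cish (18.2 ± 20.3, n = 3), at 4.84 to 41.5 CPM per kilobase, and each neighbour in the mutant order overlapped the next. Socs1 stood at 5.63 ± 0.678 CPM per kilobase in the mutants, below all members but Socs2 (3.99 ± 4.07).

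Over the 10859 genes averaging 5 CPM or more, the 3 whose pattern over the 7 libraries was most like that of Socs1 were Mrpl52, a mitochondrial ribosomal protein gene, Cers6, a ceramide synthase gene, and Oxct1, which encodes an enzyme of ketone body use. Likeness was the root mean square difference of log2 CPM after centring each gene, and it was 0.067, 0.068 and 0.085. For Cish, chosen after its values were seen, the 3 nearest genes were Mt1, a metallothionein gene, Cpne2, a copine gene, and Hk1, a hexokinase gene, at 0.27, 0.29 and 0.39. Hk1 measured 702, 175 and 255 CPM in mutants 1 to 3, against 184, 251, 108 and 86.8 CPM in wild type, so wild-type 1 and 2 were above wild-type 3 and 4, as they were for Cish.

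Erythroid cells respond to erythropoietin through STAT5, and erythroid markers also varied between spleens. Summed, they came to 15089, 3181 and 4002 CPM in mutants 1 to 3, against 12040, 29476, 2270 and 2264 CPM in the wild-type spleens. The sum is mostly Hbb-b1, a beta globin gene, at 24624 CPM in wild-type 2 and 9613 CPM in mutant 1. Over all 7 libraries mutant 1 was the highest for 3 of the 7 markers, Tfrc (1609 CPM, against 759 in wild-type 2), Klf1 (237 against 160) and Car1 (907 against 197), as it was for Cish and Socs2. Wild-type 2 held 15.7 CPM of Cish and 8.81 CPM of Socs2. Epor, the erythropoietin receptor gene, measured 119, 14.3 and 20.5 CPM in mutants 1 to 3, against 48.0, 83.7, 10.9 and 12.5 CPM in wild type. Ghr, the receptor gene whose signal Socs2 restrains, measured 20.1, 2.93 and 2.54 CPM in mutants 1 to 3, against 4.38 to 5.66 CPM in wild-type 1 to 3 and 12.4 CPM in wild-type 4, and like Socs2 was highest in mutant 1. Neither receptor gene was called (log2 fold change 0.41, adjusted p = 0.730 for Epor, and 0.32, adjusted p = 0.745 for Ghr, edgeR), and both turned negative without mutant 1 (-1.08 and -1.25). The part of erythroid cells in the Cish and Socs2 levels was not tested. Mutant 1 also had the lowest T cell marker sum among the mutants (1465, against 2960 and 2584 CPM) and the lowest immature T cell sum (1301, against 3238 and 2104 CPM).

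Most genes of the machinery that turns a SOCS protein into a ubiquitin ligase rose. Of 8 genes of the elongin and cullin ligase 7 rose and 0 fell in edgeR, where 28.5% of all tested genes rose, and the list median was 1.14 on the log2 scale. Ube2f, which encodes a Nedd8-conjugating enzyme, was not called (0.37, adjusted p = 0.138, edgeR), and its groups overlapped. Rnf7, the RING protein that pairs with Cul5, measured 73.3, 103 and 122 CPM in mutants 1 to 3, against 38.1 to 41.7 CPM in the wild-type spleens, and rose by 1.32 on the log2 scale (SE 0.18, edgeR adjusted p = 7.47e-04). Rbx1, the RING protein of other cullin ligases, and Nedd8, the modifier that activates cullins, rose by 1.30 (SE 0.15) and 1.12 (SE 0.15). The elongin genes Tceb1 and Tceb2 rose by 1.24 and 1.16, and Cul5, the cullin bound by most SOCS proteins, by 0.57 (SE 0.14). The Cul5 call was lost with library size alone (0.31, adjusted p = 0.18, edgeR) and without wild-type 1 and 2 (0.48, adjusted p = 0.113, edgeR). Tceb2 overlaps Srrm2 in the deposited coordinates, which leaves its counts uncertain.

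JAK and STAT genes mostly fell. Of 4 JAK genes 3 fell and 0 rose, where 28.9% of all tested genes fell and 28.5% rose. Jak3, which serves receptors with the common gamma chain, measured 42.5, 47.8 and 42.8 CPM in mutants 1 to 3, against 84.0 to 115 CPM in wild type (-1.14, SE 0.15), and Tyk2 and Jak2 also fell, with log2 fold changes of -1.42 and -1.26. Jak1 was lower in each mutant but not called (-0.62, SE 0.25, adjusted p = 0.0672, edgeR). Of 7 STAT genes 5 fell and 2 rose. Those that rose were the STAT5 genes, Stat5a from a mean of 45.8 ± 5.32 to one of 132 ± 23.4 CPM (a log2 change of 1.53, SE 0.17, edgeR adjusted p = 3.80e-04) and Stat5b by 0.41 (SE 0.14, adjusted p = 0.0342, edgeR), the latter call lost with library size alone (0.17, adjusted p = 0.418) and without mutant 2 or any 1 wild-type library. Stat2, which serves type I interferon receptors, fell, with a log2 fold change of -1.86, as did Stat3, used by IL-6, at -0.85. In the deposited coordinates Jak1 overlaps Raver2 and Jak3 overlaps Insl3. Jak2 overlaps only small RNA genes there (Snora19, Mir3084-2 and Mir3084), whose deposited spans also reach Dntt, a distant gene of chromosome 19.

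Cytokine and receptor genes were largely lower, in a fit where 28.9% of all tested genes fell and 28.5% rose. Of 25 cytokine genes 14 could be tested, of which 9 fell and 0 rose (median -2.88), and 6 had 0 counts in all mutants (Il2, Il3, Il9, Ifna4, Ifnb1 and Epo), of which Il3, Il9, Ifna4 and Epo also had 0 in all wild-type libraries. Il7, Il15 and Il12b, made by stromal and myeloid cells, fell, with log2 fold changes of -2.98, -3.08 and -4.04 (-4.85 for Il12b without mutant 1). Of 37 receptor genes 26 fell and 3 rose (median -1.66). Il10ra fell (-3.93), and Il12rb1 and Il12rb2, the IL-12 receptor chains, rose by 1.75 and 2.81. The third that rose, Il2ra, the IL-2 receptor alpha chain and a STAT5 target, measured 28.5, 233 and 1222 CPM in mutants 1 to 3, against 15.1 to 15.8 CPM in wild type (5.01, SE 1.04, adjusted p = 0.00481, edgeR). Its log2 fold change was 3.12 without mutant 3 and 5.63 without mutant 1. Il2ra was lowest among the mutants in mutant 1, where Cish was highest.

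Brakes outside the SOCS family fell more often than they rose. Of 18 such genes 10 fell and 3 rose, with a median of -0.58, beside 28.9% of all tested genes that fell and 28.5% that rose. Sh2b3, an adaptor that restrains JAK2, averaged 100.1 ± 11.8 CPM in wild type and 25.4 ± 1.26 CPM in the mutants (-1.98, SE 0.14, edgeR adjusted p = 1.54e-04), and Pias3, a STAT3 inhibitor, and Dusp6, a phosphatase of ERK, fell, with log2 fold changes of -1.48 and -2.10. Pias3 overlaps Nudt17, and Sh2b3 a microRNA gene, in the deposited coordinates. Over all 7 lists, 17 of 108 tested genes rose and 64 fell, with a median of -1.06, against a median of 0.41 for the SOCS genes.

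**Figure D4:**
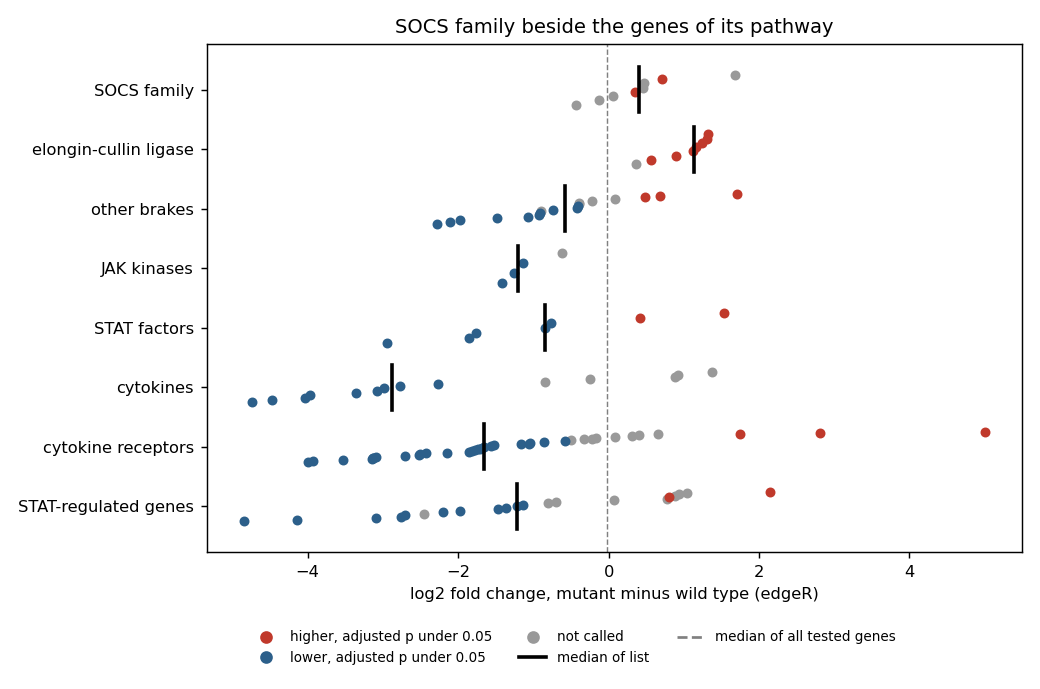
Each point is 1 tested gene at its log2 fold change (mutant minus wild type, edgeR), by list, coloured by its call, with the list median as a black bar and the median of all genes as a dashed line at -0.02. The SOCS median lies at 0.41, the elongin and cullin ligase median at 1.14 and the medians of the other 6 lists below 0.

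Of 21 genes regulated by STATs 11 fell and 2 rose (median -1.22), where 28.9% of all tested genes fell and 28.5% rose. Bcl2, a survival gene, and Tnfrsf13b, a receptor of B cells, fell (-3.09 and -2.77), and Myc rose by 2.15 (SE 0.22). Irf1, an interferon-induced transcription factor gene, fell (-1.22, SE 0.20), and was named after its values were seen, as were Pim1, Osm, Epor, Ghr and Il2ra. Mutant 1 was the highest of the 7 libraries for 2 of these 21 genes, Pim1 and Osm, for 5 of the 8 SOCS genes (Cish, Socs1, Socs2, Socs3 and Socs4) and for 13.2% of all tested genes. Pim1, a STAT5 target kinase, measured 285, 77.3 and 79.1 CPM in mutants 1 to 3, against 87.1, 133, 71.5 and 51.6 CPM in wild type. Osm, a cytokine gene switched on by STAT5, measured 19.6, 7.23 and 7.65 CPM in mutants 1 to 3, against 5.35 to 7.35 CPM in wild type, and neither was called over the 3 mutants (adjusted p = 0.231 and 0.0807, edgeR).

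**Figure D5:**
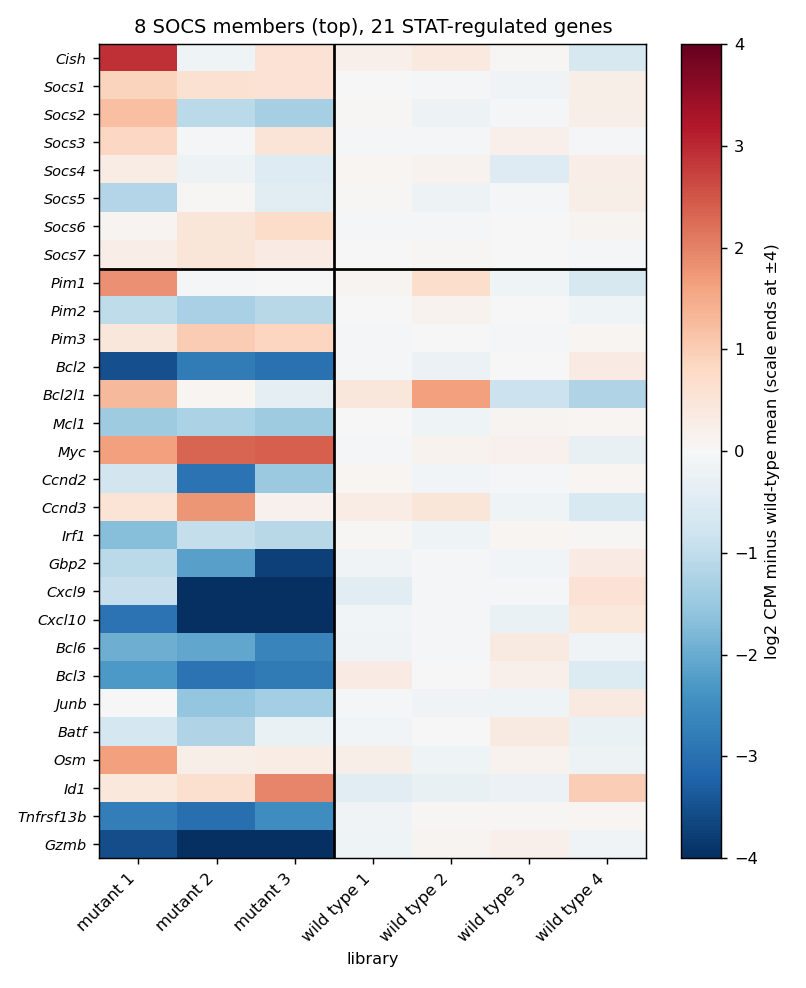
Rows are the 8 SOCS genes (above the line) and 21 STAT-regulated genes, columns the 7 libraries, and colour the log2 CPM minus the wild-type mean of the gene, with the scale ending at ±4. Mutant 1 is the reddest column for Cish, Socs2, Pim1 and Osm, all 3 mutants lie below the wild-type spleens for Bcl2 and Tnfrsf13b, and all 3 lie above them for Myc.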

How the data were processed

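The submitters' processing notes name bcl2fastq 2.17.1.14, TopHat2 2.0.12, featureCounts of Subread 1.4.6 and edgeR with build mm10, with no settings. Deposited by the authors were a table of raw counts and one of CPM that, in each library, equals the counts times 1 constant, and that leaves empty the 4455 genes without a count. Deposited starts count from 0 and are printed plus 1.

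The main test was edgeR 4.0.16 (R 4.3.3) on the raw counts, with filterByExpr, TMM factors and group as the only term. Each library is a separate spleen per the labels, with litter and day unnamed, and a p-value reflects the spread among these 7. SE is |log2 fold change| over the root of F. Pair ratios took log2 CPM (prior count 2) and an exact permutation over 35 splits. Alternatives covered RLE factors, library size alone, no filter, DESeq2 1.42.0, limma-voom and limma 3.58.1 on log2 deposited CPM plus 1 or plus 0.1, an adjusted p under 0.01, a replicate block, each library left out and, chosen after seeing the data, wild-type 1 and 2 left out.

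Members and lists were chosen with earlier results of these data known. Named genes are all members, up to 3 of each list with the smallest p, the JAKs and STATs chosen by role, and the genes most like Socs1. A gene named by this rule is not reported here. Others were chosen after their values were seen.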

Additional observations from a re-analysis of the deposited data

Results flagged for a closer look

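In 8 of 51 sets of 4 wild-type values, 1 spleen stood far from the other 3, by a test that chance trips about 1 time in 20. Among SOCS genes this held for Socs3, with wild-type 3 at 29.6 CPM. Wild-type 4 stood apart for Il12rb1 (8.04 CPM), Mrpl52 (22.1 CPM), Ghr (12.4 CPM) and Cul5 (54.3 CPM), wild-type 1 for Il12b (1.94 CPM) and Tnfrsf13b (13.0 CPM), and wild-type 2 for Irf1 (165 CPM).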

How the results depend on the processing

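With 3 and 4 spleens, the calls of Socs1 and Socs7 rest on few samples. SOCS genes called higher numbered 2 in edgeR, 4 in DESeq2, 0 with library size alone, 0 at an adjusted p under 0.01, 0 with the replicate block, 0 without wild-type 1 and 2, and 0 to 3 with 1 library left out (0 without wild-type 1, 2 or 3, and 1 without wild-type 4). SOCS genes called lower numbered 0, but 1 without mutant 1 (Socs2) and 1 without mutant 2 (Socs5). Over all tested genes, those called higher numbered 4334 in edgeR, 4685 in DESeq2, 3153 with library size alone and 3038 at an adjusted p under 0.01. They numbered 2945 with the replicate block, 2923 without wild-type 1 and 2, and 3635 to 5010 with 1 library left out. Over all genes 4390 fell, or 2924 at an adjusted p under 0.01, and pathway genes that rose numbered 17, or 11 without wild-type 1 and 2. Higher genes made up 49.7% of all calls under TMM, but 38.1% under library size alone.

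The log2 fold change of Socs2 was -0.17 with library size alone, -0.31 in limma-voom, -0.33 and -0.40 on deposited CPM plus 1 and plus 0.1, -0.36 with the block, -0.0057 without wild-type 2 and -0.0295 without wild-type 1 and 2. That of Ghr was -0.21 in limma-voom, -0.14 and -0.22 on deposited CPM plus 1 and plus 0.1, and -0.0811 without wild-type 1 and 2. With 1 library left out, the log2 fold change ran from -1.14 to 0.449 for Socs2, -0.288 to 0.0404 (without mutant 3) for Socs4, -0.20 to 1.65 for Cpne2, -0.0513 to 1.07 for Pim1, -1.08 to 1.11 for Epor and -1.25 to 0.763 for Ghr, each negative end being the value without mutant 1. The ratio difference ran from 1.21 to 1.81 for Cish to Socs2, 0.0772 to 0.38 for Socs1 to Socs3, -0.18 to 0.678 for Socs4 to Socs5 and -0.073 to 0.21 for Socs6 to Socs7, in designs too small to pass the threshold. The cause was not tested.

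Deviations of same-numbered libraries correlated at 0.042, -0.19 and 0.10 across genes, within the range of differently numbered libraries (-0.23 to 0.21). Whether same-numbered spleens shared a litter or day was not tested. With the replicate block, which leaves out wild-type 4, the log2 fold change was 0.78 for Socs1 (adjusted p = 0.0940, edgeR) and 0.32 for Socs7 (adjusted p = 0.168, edgeR), the call of Il2ra was lost (3.77, adjusted p = 0.0628, edgeR), and the ratio differences were 1.21, 0.378, 0.381 and 0.148 in the order above.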
